A study of Homo sapiens with 10 samples.

Results

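H3K9ac islands that overlapped neither an H3K27ac nor an H4K16ac island in uninduced astrocytes were followed through 2 and 7 days of doxycycline. An island is a stretch of the genome where the reads of an antibody library exceeded those of the negative control. Of the 88147 H3K9ac islands on chromosomes 1 to 22 without doxycycline, 16362 (18.6%) met this condition and are called H3K9ac-only islands here. The other 71785 comprised 31408 that overlapped both other marks, 20988 with H4K16ac alone and 19389 with H3K27ac alone. They were chosen by the called positions in the 3 island lists made without doxycycline, so every value from those lists is a description. An absent mark means that no island of it was called there, not that its signal was 0.

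The cells were immortalized human astrocytes (IHA), a fetal astrocyte line immortalized with SV40 and grown with serum and EGF, in which doxycycline at 1 µg/ml switches on IDH1-R132H. The libraries came from cells given doxycycline for 2 days and for 7 days, both labelled IDH1-R132H, and from cells given none, labelled WT IDH1. CUT&RUN, in which an antibody tethers a nuclease that cuts out the bound chromatin for sequencing, was done for each mark at each time in 1 library. The control for all 9 lists was a single library from uninduced cells that received an HRP-linked secondary antibody in place of an antibody to a mark. Whether the line is a clone is not given in the sources used here, and no sample received doxycycline without the mutant gene, so the effects of the drug and of the mutant enzyme cannot be told apart. With 1 library per mark and time there was no replicate, no test between times and no p-value. Intervals in brackets are 95% exact Clopper-Pearson intervals that treat islands as independent and cover counting error only.

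Acetylation of lysine 9 and of lysine 27 on histone H3 is found at active promoters and enhancers, and the 2 marks commonly lie together there. H3K9ac is placed mainly by the GCN5 and PCAF acetyltransferases and H3K27ac by p300 and CBP, so the marks can part. Acetylation of lysine 16 on histone H4, placed by MOF, loosens contacts between nucleosomes and spreads more widely over transcribed chromatin. IDH1-R132H converts alpha-ketoglutarate to 2-hydroxyglutarate, which inhibits histone and DNA demethylases; the question here was what becomes of sites with H3K9ac alone once the enzyme is expressed.

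The H3K9ac-only islands were short and carried few reads. Their median width was 2400 bp (quartiles 1800 and 3200, longest 11800), against 3200 bp for the other H3K9ac islands. They held a median of 34 H3K9ac reads (quartiles 29 and 43, range 14 to 164), against 52 in the others. Fewer than 50 reads were found in 85.3% of H3K9ac-only islands and in 46.5% of the others, and no H3K9ac-only island reached 200 reads, whereas 2610 of the others did. At least 5000 bp were spanned by 3.73% of H3K9ac-only islands and 22.5% of the others. Although 18.6% of islands, they held 10.8% of the reads in H3K9ac islands, 617458 reads, and covered 41.3 Mb, or 13.3% of the sequence under H3K9ac.

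Per length they stood closer to the rest, with a median of 15.0 reads per kb against 17.7. Islands with H4K16ac alone also had a median of 15.0 reads per kb, and the islands with H3K27ac, alone or with H4K16ac, had 18.9 and 19.4. The HRP control gave a median of 4 reads in H3K9ac-only islands and 6 in the others, or 1.67 and 1.82 reads per kb. The authors' fold over the control, scaled for library size, had a median of 3.03 in H3K9ac-only islands and 3.28 in the others. A false discovery rate under 0.001 was reached by 82.4% of H3K9ac-only islands (range of all of them up to 0.0489) and by 91.0% of the others.

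Antibody and control reads were both higher in wider islands. Across the 16362 islands, H3K9ac reads and HRP reads had a Spearman's rho of 0.54. Width had a rho of 0.86 with H3K9ac reads and 0.53 with HRP reads. Per kb, the rho of antibody with control reads was 0.045, with few control reads per island. The part of width in the relation of the 2 counts was not tested. These are descriptions across islands of the same libraries. No HRP read fell in 3100 H3K9ac-only islands (18.9%, against 13.0% of the others), and there the deposited fold, which sets a control count of 0 to 0.25, had a median of 38.0. In the 980 H3K9ac-only islands with 11 or more HRP reads the median fold was 1.501, against 2.14 for the others with as many. The highest folds sat on an empty control. The 5 highest among islands with at least 50 reads all had 0 HRP reads, and led with 89 H3K9ac reads over 5800 bp at chr8:90301601-90307400 (hg19, band 8q21.3), a fold of 117.

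By reads, the leading islands were also the long ones. An island of 11800 bp at chr12:30799201-30811000 (12p11.21) held 164 H3K9ac and 22 HRP reads. Next came chr2:172933601-172943400 (2q31.1) with 161 and 14 reads, and chr5:171656801-171665800 (5q35.1) with 152 and 16. The fourth and the fifth, chr1:221931801-221941800 (1q41) with 144 H3K9ac and 32 HRP reads and chr17:20023201-20032600 (17p11.2) with 141 and 28, had folds of only 1.48 and 1.65. Genes at these positions are not named, because no annotation of the hg19 build was at hand.

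H3K9ac-only islands made up a larger part of the H3K9ac list in the dark, gene-poor bands of Giemsa-stained chromosomes. They were 28.7% of H3K9ac islands in the darkest bands (2417 of 8425) and 16.3% in unstained bands (7881 of 48213), with 14.5%, 19.2% and 23.4% in the 3 shades between, from light to dark. Per length they were spread more evenly, at 5.24 per Mb in the darkest bands and 6.46 per Mb in unstained bands, whereas the other H3K9ac islands had 13.0 and 33.0 per Mb there. The high share in dark bands thus went with few other H3K9ac islands there, not with more H3K9ac-only islands per Mb. By chromosome, they were 27.8% of H3K9ac islands on chromosome 13 (411 of 1476), 25.1% on chromosome 4 and 22.2% on chromosome 7, against 7.28% on chromosome 19 (106 of 1457), 11.3% on chromosome 22 and 13.0% on each of chromosomes 16 and 17. Among the 380 bands with at least 100 H3K9ac islands, the share ran from 2.78% in 6p21.33 (3 of 108) to 58.4% in 4q28.3 (87 of 149), with a median of 17.7%.

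**Figure D1:**
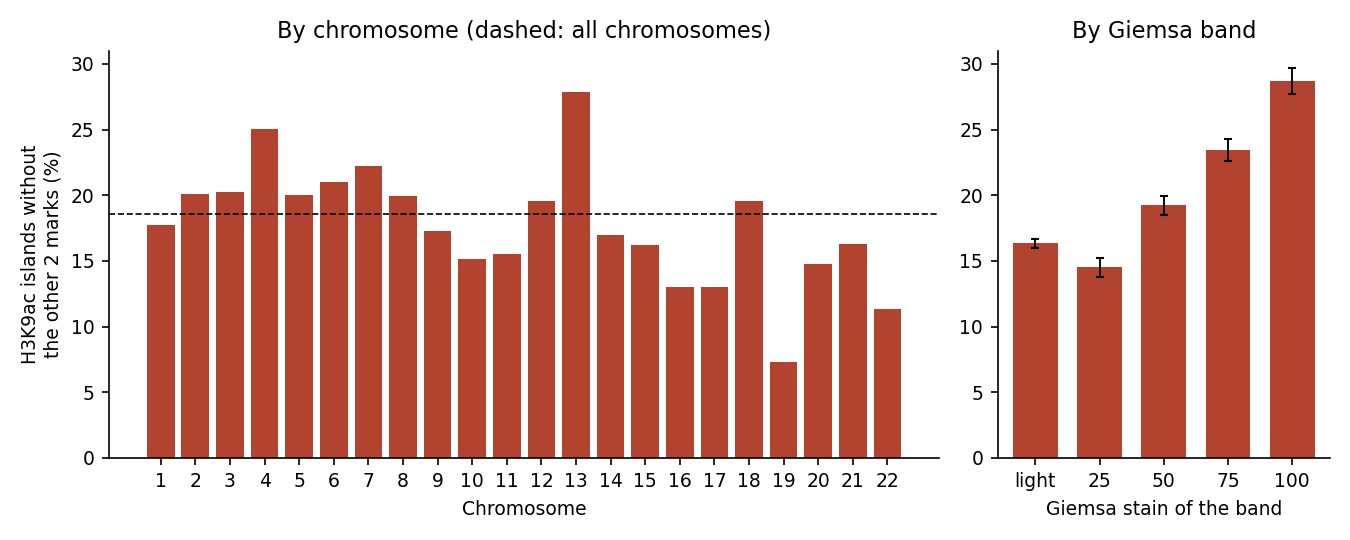
Share of H3K9ac islands without doxycycline that overlapped neither H3K27ac nor H4K16ac, by chromosome (left, the dashed line is the share over all chromosomes, 18.6%) and by Giemsa stain of the band, from unstained to darkest (right, bars are shares and whiskers 95% exact intervals for counting error). Chromosome 13 was highest at 27.8% and chromosome 19 lowest at 7.28%, and the share was 28.7% in the darkest bands against 16.3% in unstained ones.

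Most of them lay within a few kb of a mark they lacked. The nearest H4K16ac island was a median of 3.8 kb away (quartiles 1.4 and 9.2) and the nearest H3K27ac island 10.2 kb away (quartiles 3.4 and 26.6). H4K16ac was the nearer of the 2 for 67.2% of them; its uninduced list held 109591 islands and that of H3K27ac 50960, and the part of these numbers was not tested. In all, 721 (4.41%) abutted an island of either mark. Only 84 (0.513%) were 100 kb or more from both. The nearest other H3K9ac island was 5.0 kb away (median), against 2.4 kb for the other H3K9ac islands, and it was itself H3K9ac-only in 28.3% of cases, against 14.5% for the others. Runs of H3K9ac-only islands with no other H3K9ac island between them were mostly short, since 52.4% stood alone and 5.48% were in runs of 5 or more. The longest held 12 islands over 1851 kb of 3q26.1 (chr3:162309401-164160800), the next 11 islands in a shorter stretch of 1p22.3 (chr1:87456801-87575000).

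Islands on either side of the edge of the choice were alike in reads and fold. The 1362 H3K9ac-only islands under 400 bp from another mark had a median of 35 reads and a fold of 3.12, and the 1989 excluded islands with at most 400 bp under another mark had 34 reads and a fold of 3.28.

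At the later times, most H3K9ac-only islands no longer carried an H3K9ac island. An H3K9ac island overlapped 6696 of them at 2 days (40.9%, 40.2 to 41.7%), against 81.1% of the other H3K9ac islands and 73.6% of all. At 7 days the figures were 6834 (41.8%, 41.0 to 42.5%), 81.5% and 74.1%. This was the lowest share of the 4 classes at both times: islands with H4K16ac alone were overlapped in 67.2% and 68.9% of cases, those with H3K27ac alone in 78.4% at each time, and those with both marks in 92.0% and 91.8%. The later H3K9ac libraries were larger, at 1.37 and 1.60 times the size of the uninduced one, and their lists covered more of the autosomes (10.8% without doxycycline, 11.3% at 2 days and 12.9% at 7 days).

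The gap remained within each class of read number, though reads can still differ inside a class. With fewer than 50 reads, 37.8% of H3K9ac-only islands and 68.5% of the others had an H3K9ac island at 2 days; with 50 to 99 reads the shares were 58.3% and 88.4%, and with at least 100 but under 200 reads 80% (48 of 60) and 98.5%. At 7 days the same classes had 38.4% and 69.4%, 60.9% and 88.5%, and 88.3% and 98.3%. The gap was smaller against islands with H4K16ac alone, which had 59.9%, 79.0% and 95.6% in these classes at 2 days. Their shares at 7 days were 61.8%, 80.4% and 94.4%. The gap to all the others also remained by width. Among islands over 4000 bp, 57.9% of H3K9ac-only islands and 93.0% of the others were overlapped at 2 days, and among those up to 1000 bp 35.7% and 67.5%. By deposited fold the share at 2 days was 37.3% under 2, 42.8% at 2 to 3, 42.5% at 3 to 5, 45.8% at 5 to 10 and 39.5% at 10 or more.

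**Figure D2:**
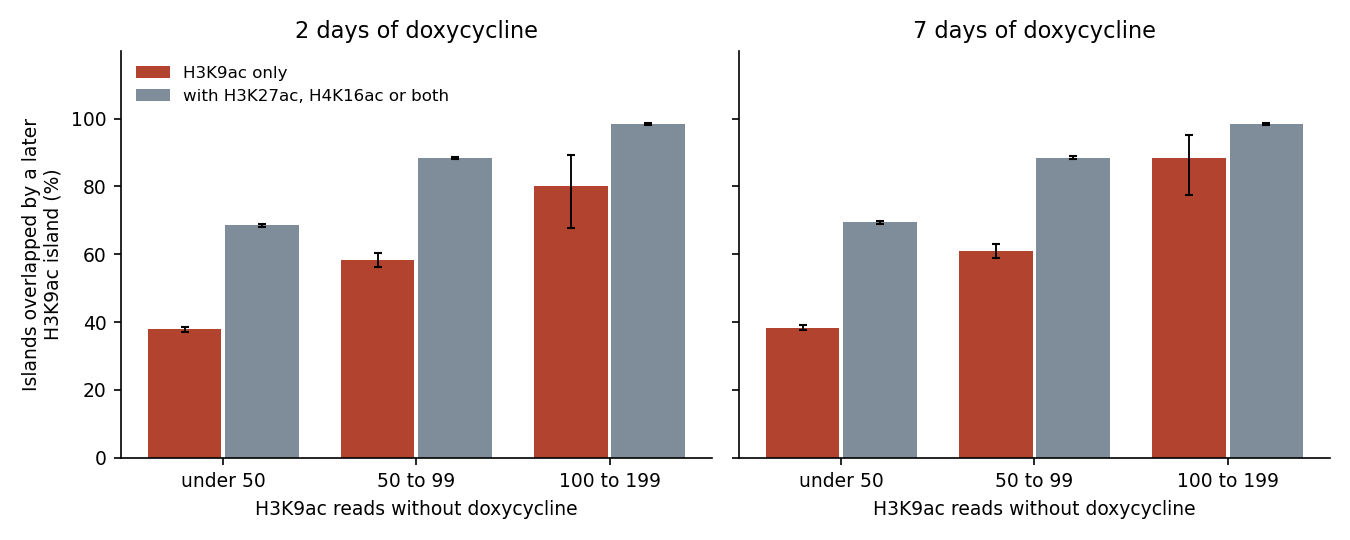
Share of H3K9ac islands called without doxycycline that an H3K9ac island overlapped after 2 days (left) and 7 days (right), by their H3K9ac reads without doxycycline. Red bars are H3K9ac-only islands, grey bars the other H3K9ac islands, whiskers 95% exact intervals for counting error; in each read class the H3K9ac-only share was lower, for example 37.8% against 68.5% under 50 reads at 2 days.

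The 2 later lists often differed on the same island. An H3K9ac island was present at both times over 3937 H3K9ac-only islands (24.1%), at 2 days alone over 2759 (16.9%), at 7 days alone over 2897 (17.7%) and at neither over 6769 (41.4%). Of those present at 2 days 58.8% were present at 7 days, and of those absent at 2 days 30.0% were. In the class with both other marks, 86.6% were present at both times and 2.79% at neither. With H3K27ac alone the shares were 67.1% and 10.3%, and with H4K16ac alone 52.5% and 16.4%. Islands with H4K16ac alone were present at 2 days alone in 14.7% and at 7 days alone in 16.3%, near the H3K9ac-only shares. The H3K9ac-only islands present at both times had a median of 38 reads and lay 2.4 kb from H4K16ac, and those present at neither had 32 reads and lay 5.4 kb from it. Presence at 7 days was 58.9% for islands that abutted an H4K16ac island, 46.0% at 1 to 5 kb and 25.9% at 20 to 100 kb. By chromosome it ran from 24.5% on chromosome 19 to 48.2% on chromosome 15 at 7 days, and from 29.7% on chromosome 13 to 46.2% on chromosome 15 at 2 days.

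Among the islands without later H3K9ac, those with most reads were chr6:158739201-158748800 (6q25.3, 133 reads), chr6:90684001-90691400 (6q15, 110 reads) and chr12:19889201-19896200 (12p12.3, 97 reads). Their HRP reads were 35, 15 and 24, and their folds 1.25, 2.41 and 1.33. An island with 75 reads and 0 HRP reads at chr11:88407201-88412200 (11q14.3), second by fold, had no island of any mark at either later time. It was among 2519 H3K9ac-only islands (15.4%) of which this was true; their median was 31 reads, and they lay a median of 8.4 kb from H4K16ac.

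Where an H3K9ac island was called later, it typically covered part of the old one, and density could be compared only there. The later islands covered a median of 64.3% of the H3K9ac-only island at 2 days and 76.9% at 7 days, against 75.5% and 85.2% in the other H3K9ac islands. Reads were scaled by library size, and the reads of a later island were counted by the share of its length inside the old one. On that measure the median log2 ratio to the uninduced library was -0.76 at 2 days (6696 islands) and -0.71 at 7 days (6834 islands), against -0.51 and -0.52 in the other islands. A value at least 2-fold lower was found in 36.0% of H3K9ac-only islands at 2 days and 33.6% at 7 days, against 23.0% and 21.0% of all H3K9ac islands with a later island. A value at least 2-fold higher was found in 1 and 0 of them, against 0.00771% and 0.00459% of all. By construction the measure is lower where the later island covers less of the old one, and it was also below 0 when islands chosen at a later time were looked up without doxycycline (median -0.49 from 2 days and -0.35 from 7 days). A value below 0 is therefore not specific to the step to doxycycline.

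Taken per kb of island, the median log2 ratio was -0.06 at 2 days and -0.22 at 7 days for H3K9ac-only islands, and -0.03 and -0.17 for the others. On this scale 2.3% of them were lower by 2-fold or more at 2 days and 1.09% were higher by as much, beside 1.40% and 0.848% of all. At 7 days the shares were 4.16% and 0.410%, beside 2.6% and 0.331%. Pairs of islands that overlapped by at least 80% of both lengths gave -0.10 (673 pairs) and -0.17 (617 pairs), against -0.07 and -0.11 in the others. Summed over all 16362, the scaled H3K9ac reads inside islands came to 25.7% of the uninduced reads at 2 days and 26.95% at 7 days, over 25.6% and 29.7% of the sequence. The same sums over the other H3K9ac islands were 63.6% and 63.4% of the reads, over 60.7% and 66.3% of the sequence. The density inside the parts still called was 15.0 and 13.5 scaled reads per kb, beside 14.9 without doxycycline. In the other islands the density was 19.7 and 18.0 scaled reads per kb, beside 18.8.

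Single islands varied. At 12p11.21 the longest island held 164 reads without doxycycline; at 2 days 3 islands covered 83.1% of it and at 7 days 50.8% was covered, and the scaled reads per kb of the 7-day islands differed from the old by a log2 ratio of 0.09. H4K16ac covered all of it at both later times, and no H3K27ac island reached it. At 1q41 the 144 reads of the old island stood beside a later island of 1600 bp with 39 reads at 2 days and 5000 bp with 90 reads at 7 days. Among islands with at least 50 reads the highest ratios were modest. At chr17:5378401-5381800 (17p13.2), 112 reads at 2 days, the share of a 16800 bp island that fell inside it, stood against 56 without doxycycline, a scaled log2 ratio of 0.55 (0.07 to 1.04, counting error only). That island was covered in full at 2 days, as was chr14:55869801-55873600 (14q22.3) at both times. At 14q22.3 the ratio was 0.47 (-0.03 to 0.99) at 2 days and 0.51 at 7 days. The lowest ratios at 2 days, again with at least 50 reads, came from later islands that only reached the edge. At chr11:75648401-75653000 (11q13.5) an island of 110 reads covered 4.35% of the old one at 2 days and gave -5.09.

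H4K16ac appeared over H3K9ac-only islands far more often than H3K27ac. An H4K16ac island overlapped 7348 of them at 2 days (44.9%, 44.1 to 45.7%), against 37.3% of the H3K9ac islands that had held H3K27ac without H4K16ac, and 40.8% of all H3K9ac islands that had lacked it. At 7 days it overlapped 10206 (62.4%, 61.6 to 63.1%), against 52.1%, and 56.8% of all. Since the islands were chosen to lack the mark, its share could only go up from 0, and the H4K16ac list itself grew, from 9.54% of the autosomes without doxycycline to 11.5% at 2 days and 20.3% at 7 days. The H4K16ac lists covered 32.7% of the sequence of H3K9ac-only islands at 2 days and 55.3% at 7 days, which is 2.83 and 2.73 times their share of the autosomes. For the H3K9ac islands with H3K27ac alone the ratios were 2.10 and 2.11. The 7-day H4K16ac library was 3.11 times the size of the uninduced one, and its part in this result was not tested.

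The difference from the H3K27ac-bearing islands was found in each class of read number that held both kinds and at nearly each distance. With fewer than 50 H3K9ac reads, 60.0% of H3K9ac-only islands and 46.2% of those with H3K27ac alone had H4K16ac at 7 days, and with 50 to 99 reads 75.7% and 57.4%. Both kinds lay at a similar distance from uninduced H4K16ac islands, a median of 3.8 and 4.2 kb. At 7 days H4K16ac was found over 81.6% and 71.6% of them within 1 kb, 70.7% and 60.2% at 1 to 5 kb, 53.3% and 44.9% at 5 to 20 kb, and 29.7% and 25.1% at 20 to 100 kb. At 100 kb or more the shares were 10.9% and 10.1%, with overlapping intervals (7.04 to 15.9% and 7.33 to 13.5%).

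**Figure D3:**
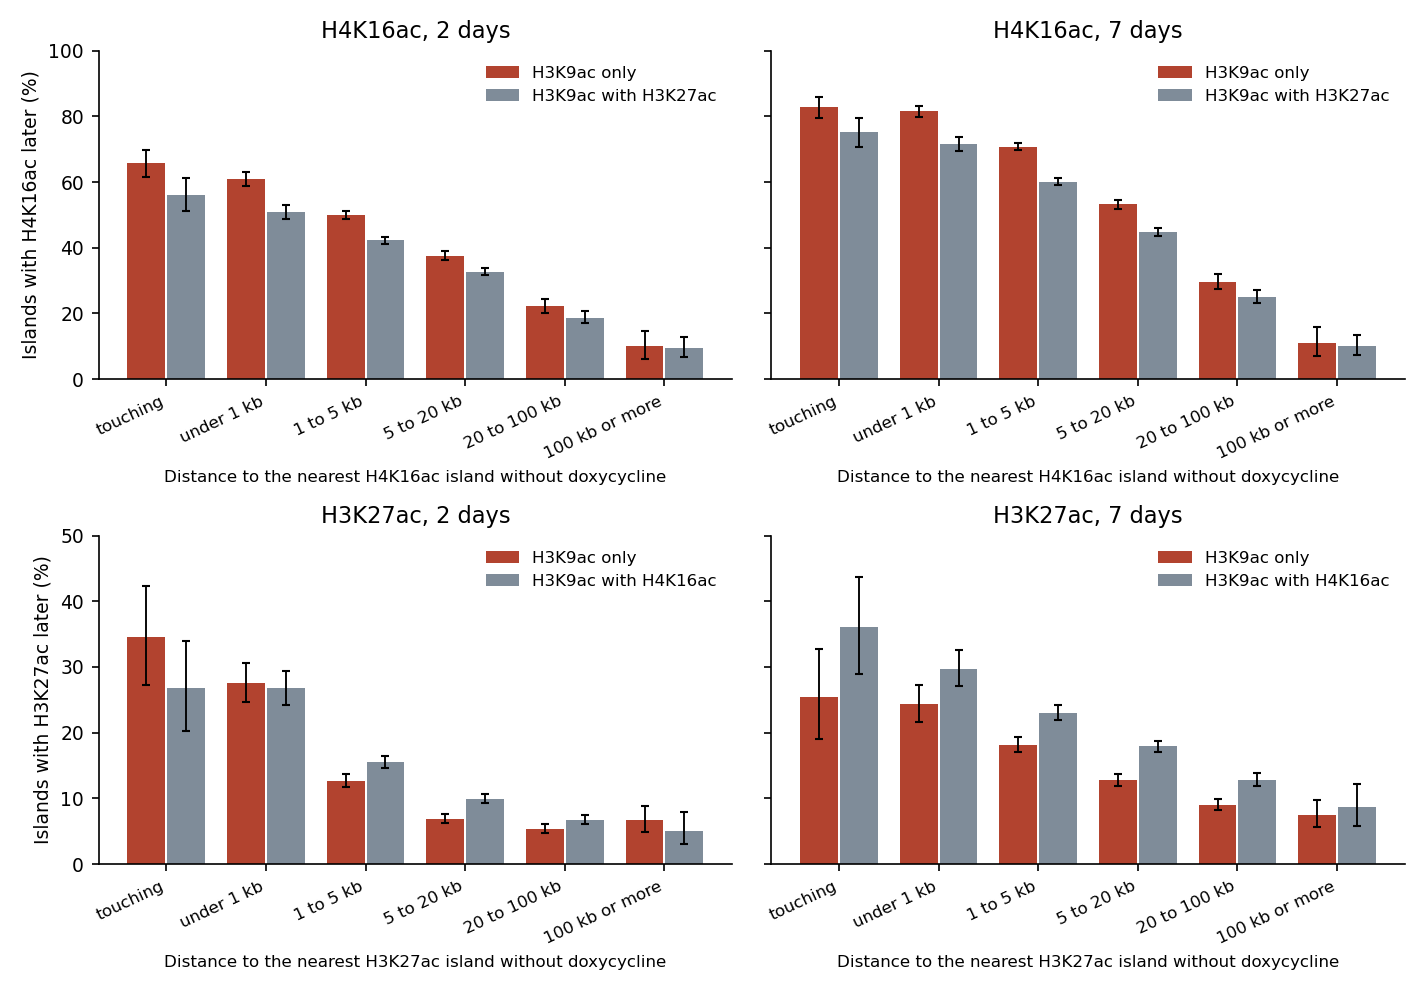
Share of islands with H4K16ac (top) and H3K27ac (bottom) after 2 days (left) and 7 days (right), by distance to the nearest island of that mark without doxycycline. Red bars are H3K9ac-only islands, grey bars H3K9ac islands that held only the other of the 2 marks, whiskers 95% exact intervals for counting error. Shares were lower with distance, apart from H3K27ac at 2 days in 2 places. Over H3K9ac-only islands it was 5.40% at 20 to 100 kb and 6.64% beyond, with overlapping intervals (4.76 to 6.09% and 4.88 to 8.78%). Over islands with H4K16ac alone it was 26.7% both where they abutted and under 1 kb. For H4K16ac the red bars were above the grey ones up to 100 kb (70.7% against 60.2% at 1 to 5 kb, 7 days).

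Some of the later H4K16ac islands extended over both an H3K9ac-only island and an old H4K16ac island. Of the H3K9ac-only islands with H4K16ac at 2 days, 29.5% lay under a later island that also touched an uninduced H4K16ac island, and at 7 days 49.7% did. The 7-day H4K16ac islands over them were wide, with a median of 6600 bp and 193 reads, against 4800 bp and 141 reads over the whole list. Among islands with H4K16ac at both later times, the 2 with most H4K16ac reads at 7 days were at 6q15. These, chr6:90471601-90475800 and chr6:90489201-90492400, lay under the same 7-day H4K16ac island of 131000 bp and 5654 reads, where the 2-day islands had held 165 reads over 9600 bp and 60 over 4600 bp. The third, chr15:63939001-63941600 (15q22.31), lay under 118800 bp with 5295 reads at 7 days and 25200 bp with 494 reads at 2 days. In density the H4K16ac over H3K9ac-only islands was near that of islands that had held the mark, at 5.04 against 5.40 scaled reads per kb at 2 days and 3.86 against 4.25 at 7 days. This was not particular to them, since H3K9ac islands that had held H3K27ac alone had 5.11 and 3.84.

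H3K27ac stayed scarce. An H3K27ac island overlapped 1533 H3K9ac-only islands at 2 days (9.37%, 8.93 to 9.83%) and 2232 at 7 days (13.6%, 13.1 to 14.2%), against 11.6% and 18.7% of the H3K9ac islands with H4K16ac alone, and 10.6% and 16.5% of all H3K9ac islands that had lacked it. The H3K27ac lists covered 5.20% and 5.91% of their sequence, which is 0.59 and 0.78 of the lists' share of the autosomes (8.77% and 7.57%). In the islands with H4K16ac alone, which were also chosen to lack H3K27ac, the ratios were 0.68 and 0.96; both sets leave out the old H3K27ac sites, which the autosome share includes. The higher share at 7 days did not hold when later islands had to cover at least 50% of the old one (5.92% at 2 days and 5.78% at 7 days) or when lists were cut to equal numbers of islands (6.79% and 6.10%). It was at both times over 521 (3.18%), and 34.0% of those that had it at 2 days had it at 7 days, whereas for H4K16ac 81.4% did. The 7-day H3K27ac library was 0.375 times the size of the uninduced one, and its part in the 7-day values was not tested.

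Later H3K27ac was also commoner near the old islands of its mark. H3K27ac was found at 2 days over 34.5% of H3K9ac-only islands that abutted an uninduced H3K27ac island (57 of 165), 27.6% within 1 kb, 12.7% at 1 to 5 kb and 5.40% at 20 to 100 kb. Most H3K9ac-only islands with later H3K27ac lay under islands separate from the old ones. Of those with H3K27ac, 22.6% at 2 days and 8.02% at 7 days lay under a later island that also touched an uninduced H3K27ac island. The later H3K27ac islands over H3K9ac-only islands were small. They had a median of 40 reads at 2 days and 19 at 7 days, against 80 and 26 over the whole list. Their density was 5.87 and 8.62 scaled reads per kb, against 11.2 and 13.9 in H3K9ac islands that had held the mark. In H3K9ac islands that had held H4K16ac alone it was similar, at 5.30 and 8.38. Among islands with H3K27ac at both later times, the most H3K27ac reads at 7 days were found at chr4:57838401-57841000 (4q12), where an H3K27ac island of 9000 bp with 312 reads reached over 23.1% of the old island and H3K9ac was absent at both later times. By chromosome the 7-day share ran from 7.30% on chromosome 13 to 31.1% on chromosome 19 (33 of 106, 22.5 to 40.9%). H4K16ac at 7 days was lowest on chromosome 19, at 42.5%. At 2 days H3K27ac lay over 10.4% on chromosome 19 (11 of 106), near the median chromosome at 9.66%. In the darkest bands the 7-day H3K27ac share was 8.73% and in unstained bands 15.3%, whereas H4K16ac was 61.9% and 62.6% in the same bands.

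Taking the marks together, few H3K9ac-only islands still met the condition later. H3K9ac without either other mark was found over 2482 (15.2%) at 2 days and 1231 (7.52%) at 7 days, and 310 (1.89%) met it at all 3 times. Islands that met the condition at a later time also seldom met it without doxycycline (12.5% of those from 2 days and 11.6% from 7 days). Among the states with any mark, the commonest later ones over the uninduced H3K9ac-only islands held H4K16ac. H3K9ac with H4K16ac covered 20.3% at 2 days and 27.1% at 7 days, and H4K16ac alone 20.4% and 27.1%. All 3 marks were found over 2.89% and 4.87%, and no mark over 34.7% and 24.7%, which made it the commonest state at 2 days. The other marks were commoner where H3K9ac was still called: at 7 days H4K16ac lay over 76.5% of islands with H3K9ac and 52.2% of those without, and H3K27ac over 17.1% and 11.1%. At 2 days these shares were 56.7% and 36.7% for H4K16ac and 13.3% and 6.67% for H3K27ac. Followed island by island, 1703 (10.4%) held H3K9ac with H4K16ac at both times, and 1260 (7.70%) H4K16ac alone at both.

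**Figure D4:**
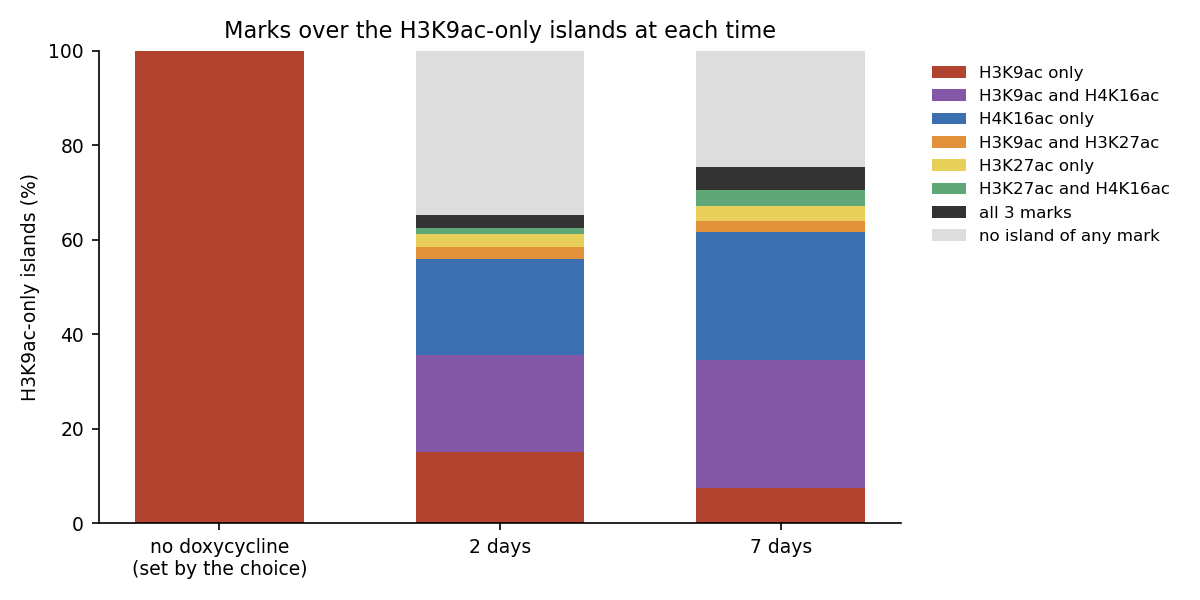
Marks over the 16362 H3K9ac-only islands without doxycycline, where the choice sets all of them to H3K9ac only, and after 2 and 7 days of doxycycline, as percent of islands. H3K9ac alone was left over 15.2% at 2 days and 7.52% at 7 days, and no island of any mark over 34.7% and 24.7%.

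The 310 that held H3K9ac alone at all 3 times had a median of 34 reads, like the rest, and lay 6.6 kb from H4K16ac (median). Those with most reads were chr11:3963401-3970600 (11p15.4), with 109 reads without doxycycline, 29 at 2 days and 46 at 7 days, chr17:7614001-7618400 (17p13.1), with 85, 40 and 279, and chr17:8312401-8315800 (17p13.1), with 80, 89 and 107 reads. These are reads of whole islands, and the 7-day island at the second was 8200 bp long against 4400 bp before. At the other extreme, the long islands at 5q35.1 and 17p11.2 held all 3 marks at both later times.

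Choosing islands for what they lack makes any later list look fuller, so the same condition was applied at each time and followed in the other lists. It was met by 16362 H3K9ac islands without doxycycline (18.6%), 22705 at 2 days (21.1%) and 10356 at 7 days (10.9%). Followed back into the uninduced lists, the islands chosen at 2 days had H3K9ac in 28.9% of cases and those chosen at 7 days in 29.4%. H4K16ac was found over 35.7% and 28.1% of these in the uninduced list, below the 44.9% and 62.4% found going forward. H3K27ac was found over 12.3% and 21.4%, above the 9.37% and 13.6% going forward. Shares over all islands of the later H3K9ac lists are not given here, so whether these values are particular to the chosen islands cannot be said. Between the induced times, H3K9ac was found over 35.6% in each direction, and H4K16ac over 55.8% of the 2-day islands at 7 days but 27.4% of the 7-day islands at 2 days. H3K9ac without either other mark was found over 8.30% of the 2-day islands at 7 days and 15.6% of the 7-day islands at 2 days. Coverage of the autosomes was widest at 7 days for the H4K16ac lists (20.3%) and without doxycycline for the H3K27ac lists (10.5%). H3K27ac was found over 14.9% of the 2-day islands at 7 days and 12.3% without doxycycline. Its lists held 83153 islands at 7 days and 50960 without doxycycline. The part of list coverage and of island number in these shares was not tested. The median prorated H3K9ac log2 ratio was also below 0 between the induced times in both directions, at -0.60 for the 2-day islands at 7 days and -0.55 for the 7-day islands at 2 days.

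**Figure D5:**
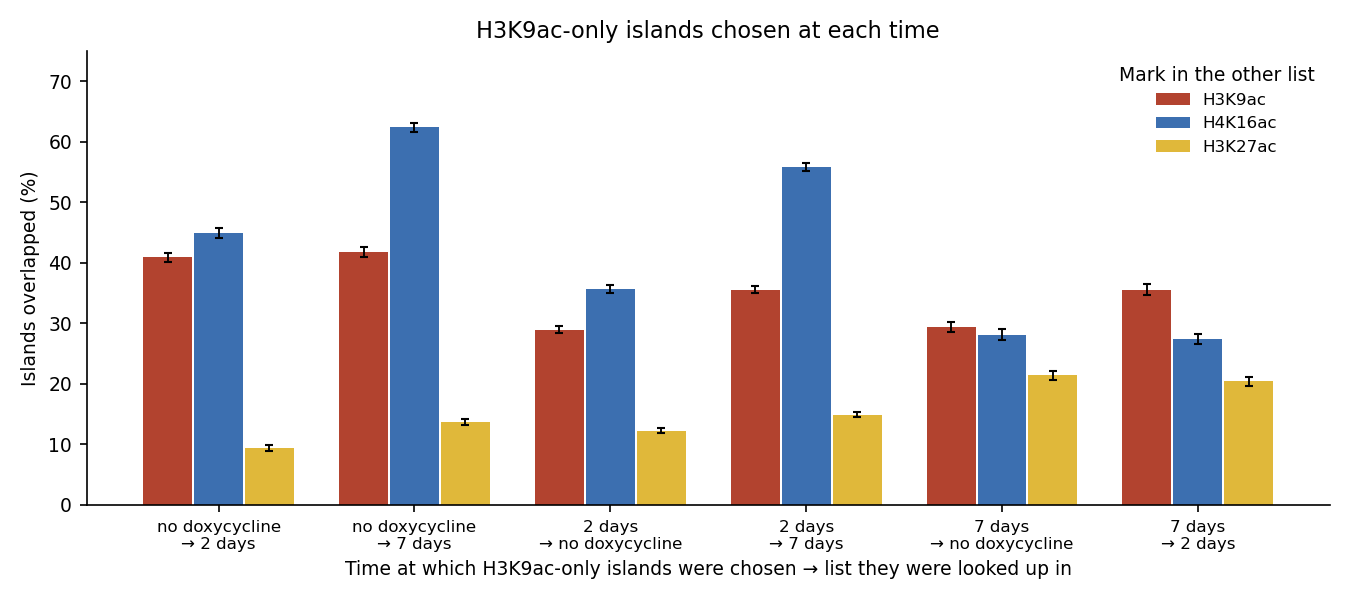
H3K9ac islands that overlapped neither other mark at the time named first on the axis, looked up in the lists of the time named second, as percent overlapped by an island of each mark (whiskers, 95% exact intervals for counting error). H3K9ac was found over 28.9 to 41.8% in every direction, while H4K16ac was highest going to 7 days (62.4% from no doxycycline) and H3K27ac going back from 7 days to no doxycycline (21.4%).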

How the data were processed

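The submitters' processing notes name Bowtie2 2.3.5.1, SICER, Picard, cutadapt, deepTools and FastQC and the build hg19, with no settings in the sources used here. Each list was called on 1 library against the HRP library, and per the file headers it gives counts of antibody and control reads, not normalised, with the authors' p-value, FDR, score and log2 fold for each island. Islands are multiples of 200 bp. Subtracting the log2 fold from the log2 ratio of an island's counts leaves the same value for every island of a list, which was taken as the library's size over that of the HRP library. In time order these sizes were 3.05, 4.17 and 4.88 (H3K9ac), 3.98, 3.15 and 1.49 (H3K27ac), and 2.53, 3.08 and 7.88 (H4K16ac). Reads in islands ranged between 4192346 and 18602277 per library. Total depth is unknown. No molecular identifiers are mentioned, so reads may be PCR copies and intervals cover counting error only.

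Overlap meant at least 1 bp. Coordinates are 1-based on hg19; Giemsa bands came from circlize 0.4.16, and an island's midpoint decided its band. Later reads over an island were prorated by length, or taken per kb, and divided by relative library size. Overlap and ratio code was tested on simulated data (numpy 2.4.6, pandas 2.3.3, scipy 1.17.1). The members, lists and comparisons were chosen with earlier results of these data known. The named islands follow a rule: most reads, highest fold and largest ratios among islands with at least 50 reads, longest, and most reads within later states. Shares by distance and summed reads were added after the data were seen. Gene names and sequences were not used here, since the annotation at hand is on another build.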

Additional observations from a re-analysis of the deposited data

How the results depend on the processing

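Each choice was changed in turn. The number of H3K9ac-only islands was 12099 when an island of another mark within 1000 bp also kept an island out, 17009 when the other marks had to cover at least 10% of it, 13490 with H3K9ac islands at FDR under 0.001, and 18619 with other marks' islands at FDR under 0.001, all within 1.5 times of 16362. Shares of islands overlapped moved by more than counting error under most settings. When later islands had to cover at least 50% of the old one, H3K9ac was found over 27.4% at 2 days and 31.9% at 7 days, H3K27ac over 5.92% and 5.78%, and H4K16ac over 34.2% and 56.4%. With later islands at FDR under 0.001 the shares were 36.2% and 37.3%, 8.34% and 12.2%, and 40.4% and 58.6%. With equal numbers of islands per list they were 32.9% and 38.5% for H3K9ac and 6.79% and 6.10% for H3K27ac, so the larger H3K27ac share at 7 days was not kept under this setting or under the 50% cover. For H4K16ac this setting removed no later island, since both later lists (92570 and 86103 islands) are shorter than the uninduced one (109591), so it says nothing about that mark. Over islands more than 1000 bp from the other marks the shares were 37.8% and 37.8%, 7.80% and 12.7%, and 41.2% and 57.5%. Over the 2399 islands with at least 50 reads they were 58.8% and 61.6%, 13.8% and 20.5%, and 61.9% and 76.1%. H4K16ac was the commoner of the 2 gained marks under each setting that could change both.

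The median log2 ratio of H3K9ac reads depended most on how reads were assigned. Against -0.76 at 2 days and -0.71 at 7 days, reads of whole later islands gave -0.028 and 0.23, the second in the opposite direction; this measure counts sequence outside the old island. Reads per kb gave -0.064 and -0.22, pairs of like length -0.10 and -0.17, scaling by reads in islands -0.77 at both times, and islands with at least 50 reads -0.96 and -0.84.

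No paired analysis was possible because each mark and time has 1 library. No replicate could be left out. Islands near the smallest callable count, 14 reads without doxycycline and 17 at 7 days for H3K9ac, can pass in or out of a list by counting error, and 85.3% of H3K9ac-only islands held fewer than 50 reads, so their absence later was not shown to be loss of the mark.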
